A study of Mus musculus with 4 samples.

Results

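The replication-dependent histone genes are the protein-coding genes whose mouse symbols start with Hist1h, Hist2h, Hist3h or Hist4h. By this rule on names, 67 of the 21755 protein-coding genes of chromosomes 1 to 19 and X in the GENCODE annotation of mm10 were members. H3K4me3 HiChIP-seq was measured in MLg cells, an established mouse lung fibroblast line. HiChIP-seq joins restriction fragments that lie close together in the nucleus and then pulls down those that carry a histone mark, here trimethylation of lysine 4 of histone H3. Each read pair therefore reports a contact, and pair ends pile up where the mark is. The 4 conditions had 1 library each and no replicates. In the libraries named Control and TGFB1 the labels give no antagomiR, and the protocol describes a negative control antagomiR. An antagomiR against miR-9-5p was transfected for both libraries named with miR-9-LOF. AntagomiRs were used at 60 nM, all cells were harvested 24 h after transfection, and for the libraries TGFB1 and TGFB1+miR-9-LOF human recombinant TGFB1 (5 ng/ml) was added after 20 h and was present for 4 h. The Control and miR-9-LOF cells received none. All comparisons between libraries below are comparisons of reads, and their intervals cover counting error only.

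Replication-dependent histone genes supply the proteins of new nucleosomes while DNA is copied. H2A, H2B, H3 and H4 form the nucleosome core and H1 binds the DNA that enters and leaves it. The genes are short, mostly lack introns and lie in clusters, and their mRNAs end in a stem-loop instead of a poly(A) tail. Their transcription and 3' end processing take place at the histone locus body, a nuclear body built on NPAT, and much of it is limited to S phase. H3K4me3 is a mark of promoters that are active or ready for transcription. A lower level in a population of cells can come from fewer cells with the mark or from less of the mark per cell, and these cannot be told apart here.

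The members lie on 4 chromosomes. Splitting them where neighbouring start sites are over 100 kb apart gave 7 groups. Hist1 on chromosome 13 consisted of subcluster A with 18 members between start sites 21716143 and 21833743, subcluster B with 5 members between 22035568 and 22043214, subcluster C with 29 members between 23531050 and 23763666, and subcluster D with Hist1h2ba and Hist1h2aa, which encode the testis variants TH2B and TH2A, at 23934156 and 23934462. Hist2 on chromosome 3 held 10 members between 96219865 and 96269752, Hist3 on chromosome 11 held Hist3h2ba and Hist3h2a at 58948920 and 58954685, and Hist4 on chromosome 6 held Hist4h4 at 136804415. Many genes of H2A and H2B sit head to head, so that their promoter windows of 1 kb on either side of the start site overlap. After overlapping windows were joined, the 67 members had 38 distinct windows, and members with overlapping windows share reads, from some to all of them.

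The promoters carry sequence elements of this gene class. The 200 bases before the RefSeq start site (GRCm38.p6) are printed 5' to 3' on the gene's strand for the members of each family with the highest promoter level, and for a member with no read. Capitals mark matches of the CCAAT box, the octamer, the H1 box and the TATA motif given below, and MboI sites are in lower case.
Hist1h1c (H1, chr13:23738607-23738806, plus strand): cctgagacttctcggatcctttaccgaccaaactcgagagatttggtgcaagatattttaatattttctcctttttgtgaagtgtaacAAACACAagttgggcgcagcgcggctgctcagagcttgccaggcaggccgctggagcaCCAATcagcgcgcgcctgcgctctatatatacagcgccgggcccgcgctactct
Hist3h2a (H2A, chr11:58954485-58954684, plus strand): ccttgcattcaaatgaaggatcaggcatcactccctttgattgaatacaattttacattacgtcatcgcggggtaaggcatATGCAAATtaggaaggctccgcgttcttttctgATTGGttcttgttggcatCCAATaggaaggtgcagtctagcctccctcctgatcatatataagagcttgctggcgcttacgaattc
Hist2h2bb (H2B, chr3:96269500-96269699, plus strand): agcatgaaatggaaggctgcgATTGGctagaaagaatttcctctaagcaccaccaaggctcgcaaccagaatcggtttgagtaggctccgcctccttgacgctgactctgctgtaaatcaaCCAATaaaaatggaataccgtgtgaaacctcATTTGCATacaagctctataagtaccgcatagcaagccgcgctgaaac
Hist1h3g (H3, chr13:23535218-23535417, plus strand): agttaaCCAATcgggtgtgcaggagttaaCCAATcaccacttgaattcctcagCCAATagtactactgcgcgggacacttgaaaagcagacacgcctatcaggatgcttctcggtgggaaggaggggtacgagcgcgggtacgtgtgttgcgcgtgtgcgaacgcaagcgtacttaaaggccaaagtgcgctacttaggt
Hist1h4h (H4, chr13:23530844-23531043, plus strand): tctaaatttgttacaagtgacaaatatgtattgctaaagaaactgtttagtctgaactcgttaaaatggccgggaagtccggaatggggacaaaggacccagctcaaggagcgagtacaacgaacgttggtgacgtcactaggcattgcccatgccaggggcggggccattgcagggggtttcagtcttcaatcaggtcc
Hist1h2bq (H2B, chr13:21810200-21810399, minus strand): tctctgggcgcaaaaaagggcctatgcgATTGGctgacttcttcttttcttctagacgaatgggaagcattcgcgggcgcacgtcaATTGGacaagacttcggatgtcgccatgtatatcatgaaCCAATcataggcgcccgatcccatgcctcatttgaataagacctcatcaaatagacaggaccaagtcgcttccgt
The sequence of Hist1h2bq is shown because the same bases stand before Hist1h2br (chr13:21833543-21833742, plus strand).

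A RefSeq promoter was found for 62 of the 67 members, and 250 bases before the start were searched on both strands in these and in all 27025 RefSeq promoters. The CCAAT box (CCAAT or ATTGG) was in 82.3% of member promoters and in 34.1% of all promoters. It was in each of the 6 H1 and 34 H2A and H2B promoters, but in 3 of 12 H4 promoters (25%), and Hist1h4h above has none in its 200 bases. The octamer bound by POU factors (ATTTGCAT or ATGCAAAT) was in 14 of the 34 H2A and H2B promoters (41.2%), in no other member promoter, and in 1.61% of all promoters. It is printed in capitals in Hist2h2bb and Hist3h2a. The H1 box (AAACACA or TGTGTTT) was in 5 of 6 H1 promoters (83.3%) against 14.5% of member promoters and 6.38% of all promoters. TATAAA or TTTATA was in 46.8% of member promoters and in 13% of all. The MboI site GATC, which is cut in the assay and near which pair ends must lie, was in 30.6% of the member sequences and in 42% of all. None of these motifs is contained in another, though neighbouring matches can share end bases, and a match is a description of the sequence, not of a bound site.

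The libraries held 10864558 to 15568047 valid pairs, and 19712816 to 27727838 pair ends on chromosomes 1 to 19 and X lay in pairs in which both ends mapped with a quality of 30 or more. A promoter was called marked when its window held at least 4 times the chromosome's mean density of ends over the 4 libraries, each library with the same weight. The share of ends at marked promoters was 8.70% in Control, 6.26% under TGFB1, 3.71% with TGFB1+miR-9-LOF and 4.35% with miR-9-LOF. Because of this difference, promoter ratios between libraries are given relative to all ends at marked promoters. The fibroblast markers Vim and Twist1, an intermediate filament and a transcription factor, were marked at 16.2 and 14.3 times the chromosome mean, and 6 of 10 fibroblast markers were marked (Col1a1, Pdgfrb, Vim, Fn1, S100a4 and Twist1). None of the 11 epithelial, endothelial and leukocyte markers was.

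Few histone promoters were called marked from the ends that could be placed. Of the 67 members 8 were marked (11.9%), where 37% of all protein-coding promoters were. Hist2h2ab, Hist2h2ac and Hist2h2be each count here and below, though their windows overlap and share reads. With windows of 2 kb 5 members and 6676 of all coding promoters were marked, with pairs at least 20 kb apart 5 and 7981, with each fragment pair counted once 6 and 8003, and with windows at the start of the coding sequence 10 and 6268, beside 8 and 8043. Levels are given as EPM, the ends in the window per 1000000 ends of the library. The members' median level was 0.756 EPM (mean of the 4 libraries, or 0.977 over the 58 members with any end), against 1.67 over all coding promoters and 7.16 over marked ones. Their median ratio to the chromosome mean was 1.09. By library the members' median was 0.829 EPM in Control, 0.761 under TGFB1, 0.626 with TGFB1+miR-9-LOF and 0.669 with miR-9-LOF. In the average over promoters, marked genes had a peak just downstream of the start site in each library, and the members had no such peak. Marked promoters were picked by their ends near the start site, and most members did not meet that rule. The contrast therefore follows in part from the rule.

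**Figure D1:**
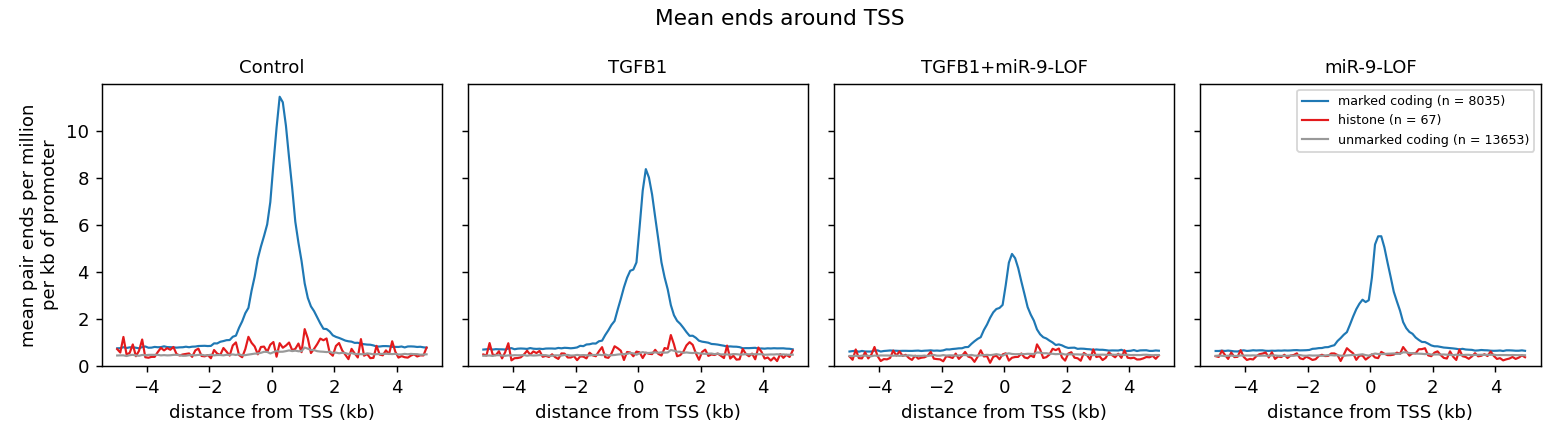
Mean EPM per kb of promoter (vertical axis) against distance from the start site in kb (horizontal axis), 1 panel per library, for 8035 marked coding promoters that are not members, 67 histone genes and 13653 unmarked coding promoters. The histone line stays near the unmarked line in all 4 panels, and the peak of the marked promoters is highest in Control.

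Reads can reach many of these windows only in part. The histone genes are near copies of each other, and ends in a stretch that occurs elsewhere cannot be placed. In the median member window 80.7% of the 50-base words occurred once in the genome, against 100% in the median coding window, and there were 4 MboI sites against 5. A window can be unique and still be poor in sites, so both were counted. Of members with at least 4 sites and at least 80% unique words, 7 of 19 were marked (36.8%), with a median of 2.16 EPM. Among all coding promoters of that kind, 46.3% of 13860 were marked, with a median of 2.59. Of the other 48 members 1 was marked (2.08%), Hist2h2bb, and their median was 0.485, where 20.6% of the other 7895 coding promoters were marked and their median was 0.671. How much of the low level of the members comes from these windows was not tested.

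In 9 members no end was found in any library. They were Hist1h2bq, Hist1h2br, Hist1h2ao, Hist1h2ap, Hist1h4m, Hist1h4n, Hist2h2aa2, Hist2h3c1 and Hist1h4b. No end was found there even when mapping quality was ignored. In Hist1h2bq, Hist1h2br, Hist1h2ao and Hist1h2ap 0% of the words were unique, in Hist1h4m 7.02%, in Hist1h4n 8.04%, in Hist2h3c1 21.5% and in Hist2h2aa2 42.8%. Hist1h4b differs from these, since 90.3% of its window was unique and it held 1 MboI site, as many as Hist1h1b, which had 10, 5, 5 and 10 ends. Of all 1042 coding promoters with under 50% unique words 579 had no end, as had 8 of the 10 such members. The limit taken for a count of 0, which is 3 ends, was 0.108, 0.152, 0.117 and 0.111 EPM per library, in the order used throughout (Control first, then TGFB1, then TGFB1+miR-9-LOF, then miR-9-LOF), and where reads cannot be placed it says nothing of the mark. Uniqueness did not order the levels strictly, since Hist2h3c2 at 22.4% had 33, 15, 16 and 12 ends. Whether these 9 promoters lack the mark or could not be reached by reads was not tested.

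**Figure D2:**
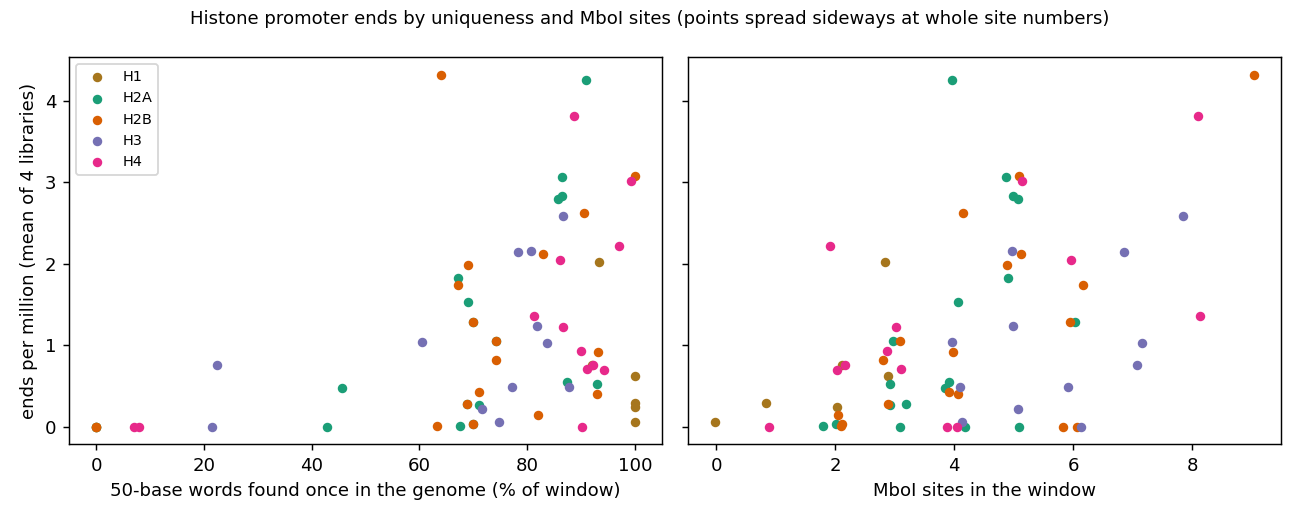
EPM at each of the 67 histone promoters (mean of 4 libraries, vertical axis) against the percent of 50-base words of the window found once in the genome (left) and against MboI sites in the window (right), coloured by family. Members under 50% unique words lie at or near 0, except Hist2h3c2 (22.4% unique, 0.756 EPM) and Hist2h2aa1 (45.6% unique, 0.481 EPM).

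Linker histone H1 promoters had the lowest median of the 5 families, 0.457 EPM, and none of the 6 was marked. Their windows had a median of 2 MboI sites, against 3 to 5.5 in the other families. Of the 25 members with 1 to 3 sites 0 were marked, where 25.3% of the 6243 coding promoters with 1 to 3 sites were. Hist1h1c, which encodes H1.2, had the most, with 80 ends in Control, 42 under TGFB1, 35 with TGFB1+miR-9-LOF and 46 with miR-9-LOF, or 2.89, 2.13, 1.37 and 1.71 EPM. Hist1h1e (H1.4) had 22, 16, 26 and 11 ends in the same order. Its window overlaps that of the H2B gene Hist1h2be, whose annotated start site lies inside Hist1h1e. Hist1h1d had a mean of 0.619 EPM and Hist1h1b, in subcluster A, 0.295. The testis gene Hist1h1t had 7, 6, 4 and 7 ends. Hist1h1a had 1, 0, 0 and 5 ends in a window that was 100% unique but had 0 MboI sites, so its level cannot be compared with the others.

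Among the H2A promoters 3 of 18 were marked, Hist2h2ab, Hist2h2ac and Hist1h2af. Hist3h2a had the highest level of the family, with 189 ends in Control, 94 under TGFB1, 78 with TGFB1+miR-9-LOF and 64 with miR-9-LOF, or 6.82, 4.77, 3.05 and 2.38 EPM. It was not marked by the rule, at 3.42 times the mean of chromosome 11. Hist2h2ac had 111, 62, 47 and 89 ends, or 4.00, 3.15, 1.84 and 3.31 EPM. Hist2h2ab had 111, 56, 48 and 70 ends in a window that overlaps it, and Hist1h2af in subcluster C had 115, 47, 63 and 59. In these 4 genes Control was the highest library, as it was in the median of all marked promoters (10.8, 7.71, 4.69 and 5.46 EPM). The 11 unmarked H2A genes with ends other than Hist3h2a ranged from Hist1h2ah at 1.83 EPM down to Hist1h2ad at 0.00929, where 1 end was found in all. Between them lay Hist1h2ag (1.54), Hist1h2an (1.28), Hist1h2ak (1.05), Hist1h2ab (0.549), Hist1h2aa (0.525), Hist2h2aa1 (0.481), Hist1h2ac (0.273), Hist1h2ae (0.267) and Hist1h2ai (0.0371).

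Of the H2B promoters 3 of 18 were marked, Hist2h2bb, Hist2h2be and Hist1h2be. Hist2h2bb had the highest mean level of all members, 4.32 EPM, with 199 ends in Control, 80 under TGFB1, 77 with TGFB1+miR-9-LOF and 82 with miR-9-LOF, or 7.18, 4.06, 3.01 and 3.05 EPM. Its window held 9 MboI sites and was 64% unique. Hist1h2be had 127, 53, 67 and 66 ends, or 4.58, 2.69, 2.62 and 2.45 EPM. Its annotated gene runs from 23583670 to 23621124 on the minus strand. The start site used therefore lies inside the H1 gene Hist1h1e (23620629 to 23622558), and the windows of both genes overlap. Whether these ends belong to a promoter of Hist1h2be was not tested. Hist2h2be, at 4.03 times the chromosome mean, stood with Hist1h2af (4.03) just inside the rule for a marked promoter, and Hist1h3g (3.73) and Hist3h2a (3.42) stood just outside it. The other H2B genes with ends had 2.12 (Hist1h2bb), 1.98 (Hist1h2bj), 1.74 (Hist1h2bk), 1.28 (Hist1h2bp), 1.05 (Hist1h2bn), 0.920 (Hist3h2ba), 0.821 (Hist1h2bm), 0.428 (Hist1h2bg), 0.405 (Hist1h2ba), 0.273 (Hist1h2bc), 0.143 (Hist1h2bh), 0.0371 (Hist1h2bl) and 0.00929 (Hist1h2bf) EPM.

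No H3 promoter was marked. The family's median was 0.890 EPM over 12 genes. Hist1h3g came nearest to the rule, with 80 ends in Control, 80 under TGFB1, 43 with TGFB1+miR-9-LOF and 46 with miR-9-LOF, or 2.89, 4.06, 1.68 and 1.71 EPM. TGFB1 was its highest library. Hist2h3b had 101, 46, 31 and 39 ends. Hist1h3c (2.14), Hist1h3d (1.23), Hist1h3e (1.04), Hist1h3i (1.02), Hist2h3c2 (0.756), Hist1h3h (0.489), Hist1h3a (0.485) and Hist1h3b (0.211 EPM) followed, and Hist1h3f had 3, 0, 1 and 2 ends.

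Of the H4 promoters 2 of 13 were marked, and the family had the highest median, 0.929 EPM. Hist1h4h, at the left edge of subcluster C, had 172 ends in Control, 89 under TGFB1, 43 with TGFB1+miR-9-LOF and 77 with miR-9-LOF, or 6.20, 4.51, 1.68 and 2.86 EPM. Hist2h4 had 128, 54, 56 and 68 ends, or 4.62, 2.74, 2.19 and 2.53 EPM. Hist4h4, the lone member of Hist4, had 85, 45, 45 and 47 ends in a window with 2 MboI sites, and Hist1h4k in subcluster A had 85, 41, 43 and 37. Hist1h4a (1.36), Hist1h4j (1.22), Hist1h4i (0.929), Hist1h4c (0.754), Hist1h4f (0.702) and Hist1h4d (0.695 EPM) lay below them.

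By place, 5 of the 10 members of Hist2 were marked, with a median of 2.39 EPM. Subcluster C held the other 3 among 29, with a median of 0.619. In Hist2 the marked members Hist2h2ab, Hist2h2ac and Hist2h2be have overlapping windows and are not separate promoter regions. No member of A (median 0.392), B (1.74) or D (0.465) was marked. The median of A counts 6 members without ends as 0, and over its other 12 members it was 1.04, above C (0.657 over 28 members with ends) and D. The whole of each group with 10 kb on either side had 0.825 to 1.08 times the chromosome's mean density of ends in A over the 4 libraries, 1.81 to 3.31 times in B, 1.24 to 1.70 times in C, 0.900 to 1.21 times in D, 1.82 to 2.83 times in Hist2, 1.33 to 2.34 times in Hist3 and 0.952 to 2.04 times in Hist4. The density of A also counts stretches that held MboI sites but no ends, among them those at Hist1h2bq and Hist1h2br.

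**Figure D3:**
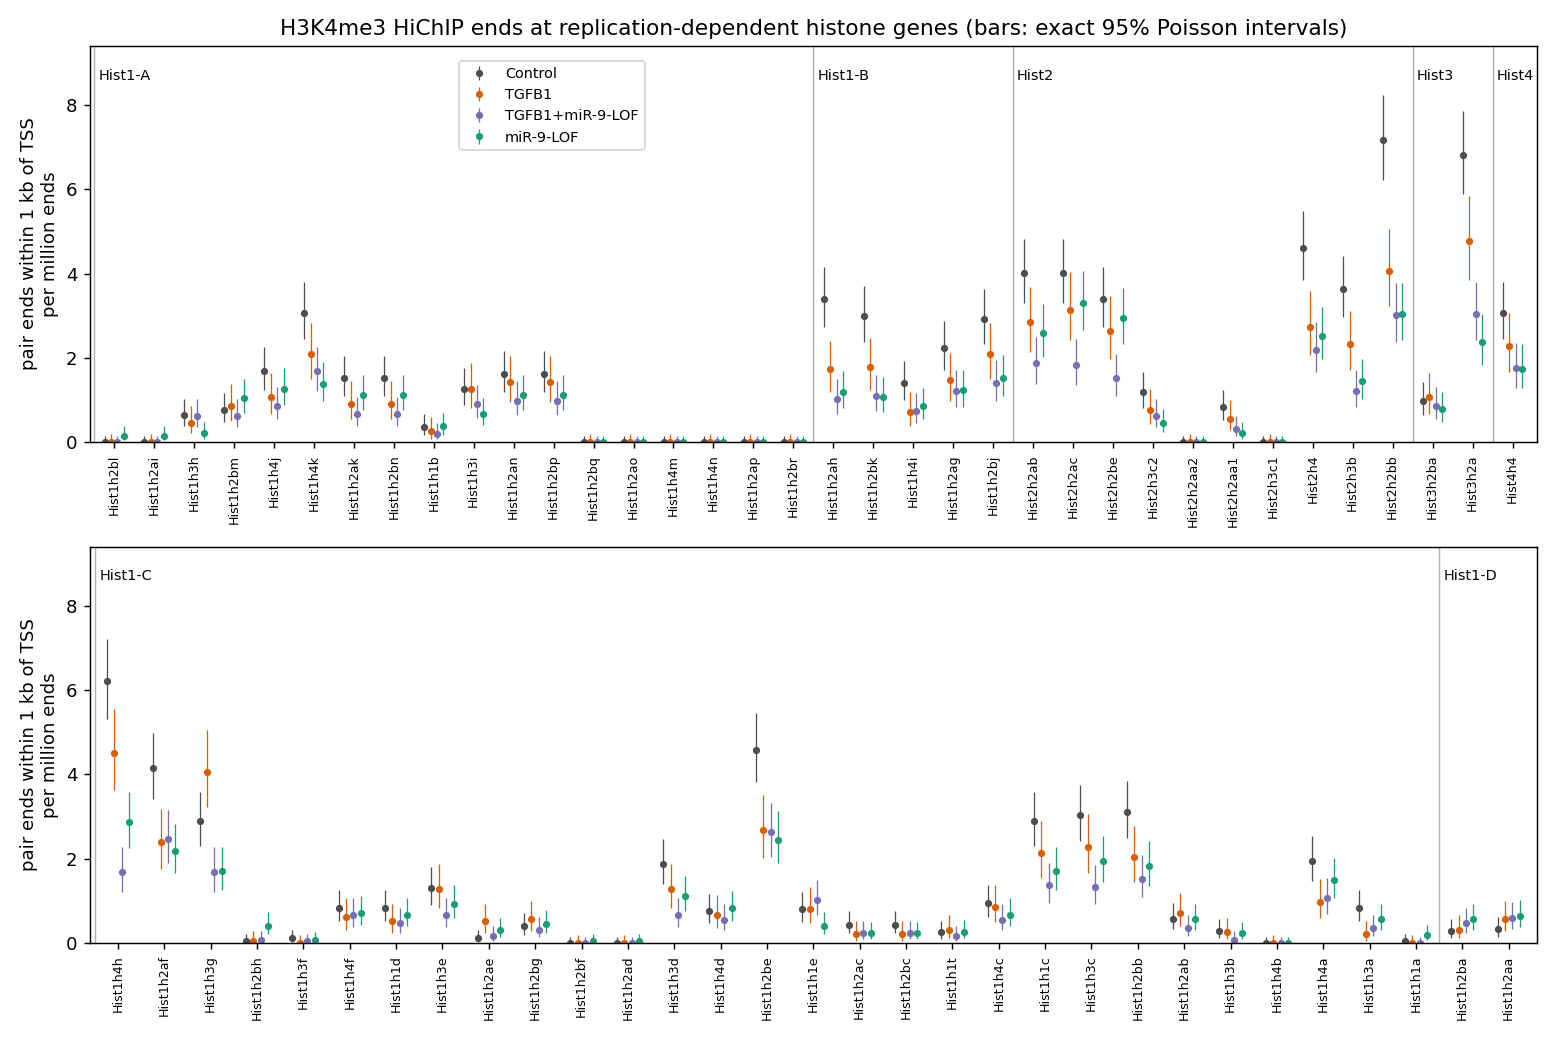
EPM at the promoter window (vertical axis) for each of the 67 histone genes in genomic order, 1 colour per library, with exact 95% Poisson intervals. Hist2h2bb (7.18) and Hist3h2a (6.82) were the highest in Control, and 9 members had no end in any library.

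Next it was asked whether the members' promoters changed with TGFB1 or with the loss of miR-9. The 8 marked members were tested among 8043 marked coding promoters by a two-sided exact binomial test of 2 libraries with Benjamini-Hochberg adjustment over all 8043. With TGFB1 alone (TGFB1 over Control) 0 of 8 members were called higher and 0 lower, where 0.274% of all marked promoters were called higher and 0.0746% lower. At an unadjusted p under 0.05 the counts were 0 and 0 as well, beside 5.81% and 5.50% of all marked promoters. The members' median log2 ratio was -0.15 and that of all marked promoters was -0.0049. The rule for a marked promoter used these same libraries, so a member near it can pass through a high Control. Hist1h2af, inside the rule at 4.03, had 4.15 EPM in Control and 2.38 under TGFB1, while Hist1h3g, outside at 3.73, had 2.89 and 4.06. Counts and medians of the 8 members over Control therefore cannot be separated from that rule. The summed ends of all 67 members, 2447 in Control and 1251 in TGFB1, equalled 0.101% of the number of marked-promoter ends in both. This was a log2 ratio of -0.0014 (95% interval -0.10 to 0.10). Most members are unmarked, so this percentage relates different sets and is not a share. Gene by gene, marked or not, the median ratio was -0.018 over members and 0.16 over all 21755 coding promoters. With totals of all ends the summed ratio was -0.48 and 5 of the 8 members were called lower, as were 6538 of the 8043 marked promoters. Hist1h3g, which was below the rule for a marked promoter and so not tested, had a log2 ratio of 0.97 (0.50 to 1.43). It was the member called higher in the alternatives that tested all promoters (307 of 21755 called higher), those with at least 20 ends (366 of 18093) or windows around the start of the coding sequence (41 of 6268). Its window overlaps that of Hist1h2af, which had 115 ends in Control and 47 under TGFB1.

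With miR-9 lost in the presence of TGFB1 (TGFB1+miR-9-LOF over TGFB1) 0 of 8 members were called in either direction, beside 0.448% called higher and 0.249% lower over all marked promoters. At an unadjusted p under 0.05, 2 of 8 were higher and 1 was lower, beside 6.02% and 4.77% of all marked promoters. Hist1h2af had a log2 ratio of 0.80 (exact binomial p = 0.00381, Benjamini-Hochberg adjusted p = 0.159), Hist1h2be 0.72 (adjusted p = 0.218) and Hist1h4h -0.67 (adjusted p = 0.279). Hist1h4h had 4.51 EPM under TGFB1 and 1.68 with TGFB1+miR-9-LOF, and Hist1h2af, whose start site is under 3 kb away, had 2.38 and 2.46. The summed member ends were 1251 and 1143, equal to 0.101% and 0.121% of the number of marked-promoter ends, a log2 ratio of 0.25 (0.13 to 0.37). With totals of all ends this summed ratio was -0.51. Gene by gene, marked or not, the median ratio to marked-promoter ends was 0.30 over members and 0.33 over all 21755 coding promoters, most of them unmarked like most members.

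With miR-9 lost and no TGFB1 (miR-9-LOF over Control) 2 of 8 members were called higher and 0 lower, beside 4.94% and 4.4% of all marked promoters. Both were Hist2 genes of the left end of the cluster, Hist2h2ac and Hist2h2be, which are transcribed away from each other from overlapping windows and are therefore not separate evidence. Hist2h2ac had 111 ends in Control and 89 in miR-9-LOF, a log2 ratio to marked-promoter ends of 0.72 (95% interval 0.30 to 1.14, exact binomial test, adjusted p = 0.0123). Hist2h2be had 94 and 79 ends, a log2 ratio of 0.79 (0.34 to 1.24, exact binomial test, adjusted p = 0.0114). As EPM they were 4.00 and 3.31, and 3.39 and 2.93, so that both were higher only relative to the other marked promoters. Both calls were lost with windows of 500 bp or 2 kb, with pairs at least 20 kb apart and with totals of all ends. Hist2h2ac was also not called with windows at the start of the coding sequence, and Hist2h2be not with each fragment pair counted once. The effect of the loss of miR-9 was compared with and without TGFB1 after the ratios had been seen. The difference of the log2 ratios, with TGFB1 minus without, was -0.74 (95% interval -1.42 to -0.06) in Hist2h2ac, -0.82 (-1.56 to -0.09) in Hist2h2be and, in the other direction, 0.72 (0.02 to 1.43) in Hist1h2af. Their Benjamini-Hochberg adjusted p was 0.377, 0.369 and 0.417, by a Wald test on log counts over 8043 promoters. None of the 8 members was called for this difference, beside 0.162% of all marked promoters. The summed member ends had a log2 ratio of 0.20 (0.10 to 0.30) in miR-9-LOF over Control, and of -0.80 with totals of all ends. Gene by gene, marked or not, the median ratio to marked-promoter ends was 0.40 over members and 0.46 over all 21755 coding promoters.

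Most genes that supply and process histones were marked. Of 30 genes of transcription and processing of histone mRNA, the S-phase switch and histone chaperones, 25 were marked, beside 37% of all coding promoters and 8 of the 67 members, with a median of 5.78 EPM over the 30. E2f1, an S-phase transcription factor, and Hinfp, the H4 gene transcription factor, had 14.8 each, Npat, the scaffold of the histone locus body, had 9.46, and Slbp, which binds the stem-loop, had 3.73. The unmarked genes were Lsm10, Zfp473, Gon4l, Coil and Sympk. In each of the 3 contrasts 0 of the 25 were called higher and 0 lower, beside 0.274% and 0.0746% of all marked promoters in TGFB1 over Control, 0.448% and 0.249% in TGFB1+miR-9-LOF over TGFB1, and 4.94% and 4.4% in miR-9-LOF over Control. In TGFB1 over Control the log2 ratios ran from -0.43 in Asf1a, -0.21 in Rbbp7 and -0.18 in Chaf1a to 0.26 in Lsm11, 0.29 in Asf1b and 0.31 in Ipo4, a histone importin. Of 11 replication-independent histone genes, which are used outside S phase, 7 were marked and 0 were called. Their ratios in that contrast ran from -0.32 in H2afz, -0.17 in H2afv and -0.15 in H1f0 to -0.07 in H2afy2, 0.28 in H2afx and 0.35 in H1fx. H3f3a had 0 ends and 0 MboI sites in its window.

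Subclusters A and B of Hist1 touched subcluster C across more than 1 Mb of sequence. Contacts were counted between 10-kb bins at least 20 kb apart and divided by the pairs expected from the coverage of both bins and their distance on the chromosome. Between A and C, at least 1680 kb apart, there were 37 pairs in Control, 15 under TGFB1, 39 with TGFB1+miR-9-LOF and 34 with miR-9-LOF, or 125 in all where 19.1 were expected. The ratio of observed to expected pairs was 6.55 (exact 95% Poisson interval 5.46 to 7.81), and 2.89 where A was joined with B and C with D by splitting at gaps over 500 kb, which adds the sequence between them. By library it was 5.33, 4.38, 10.04 and 7.05. Between B and C there were 41, 17, 27 and 23 pairs, 108 in all where 17.3 were expected, a ratio of 6.23 (5.11 to 7.52). By library it was 5.78, 5.15, 8.61 and 6.01. All 8 of these library values were above 1 by their own intervals. Bins that both held marked promoters had ratios of 0.665 and 0.637 at the same distances. By library these were 0.584, 0.687, 0.792 and 0.737 at the distances of A with C. At those of B with C they were 0.555, 0.665, 0.777 and 0.698. The marked bins are not a like set, since the subcluster ratios run over every bin and A and B held no marked member. Among window pairs of the same sizes and spacing over the autosomes, given as a description and added after the data were seen, A with C was above 99.3% of 42682 (median 0.887) and B with C above 99.8% of 25966.

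At shorter range the histone bins were less apart from the rest. Within A the ratio was 1.63 (1.45 to 1.83), within C 1.39 (1.31 to 1.47) and within Hist2 1.13 (0.978 to 1.31; in bins of 20 kb 1.77, 1.57 to 1.98), where marked bins at the same distances had 0.802, 0.788 and 0.806. Windows of the same shape had medians of 1.16 and 1.15, and A was above 86.8% and C above 73.6% of them. Between A and B the ratio was 1.35 (1.10 to 1.65), above 61.3% of windows of the same shape. Subcluster D with its testis genes showed no such link. Between C and D, the subcluster nearest to C, there were 28 pairs where 67.6 were expected, a ratio of 0.414 (0.275 to 0.599), and A and B had 1 pair each with D where 1.62 and 1.37 were expected.

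The long-range contacts were not limited to the histone genes. The 200 kb to the left of C, which hold the marked gene Abt1 and no member, had a ratio of 3.49 (2.87 to 4.20) with A and of 8.59 (7.57 to 9.70) with B, above the 6.23 of C with B. The segment between A and B, with the marked gene Zfp184, had 2.79 (2.40 to 3.23) with C. Both segments were rich in pair ends, at 1.75 to 2.44 times the chromosome mean between A and B and at 1.79 to 2.67 times to the left of C over the libraries. The rest of the sequence between B and C, at 0.454 to 0.616 times the mean, had ratios of 0.580 with A, 0.630 with B and 0.252 with C. Outside, C had 1.21 (1.04 to 1.41) with the 1.5 Mb to the left of A, and A had 0.896 with them. In the profile of C a further 50-kb bin about 0.5 Mb to the left of A held 13, 10, 10 and 11 pairs. With the 1.5 Mb to the right, at 1.41 to 1.48 times the chromosome mean of ends, C had 0.608 (0.564 to 0.655) and A 0.843 (0.642 to 1.09). A itself had 0.825 to 1.08 times the mean over its full length. That length includes stretches that held MboI sites but no ends, among them those at Hist1h2bq and Hist1h2br, so this density is not like that of the neighbouring segments. The part of the histone genes, and that of the other genes of these stretches, in the contacts was not tested.

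**Figure D4:**
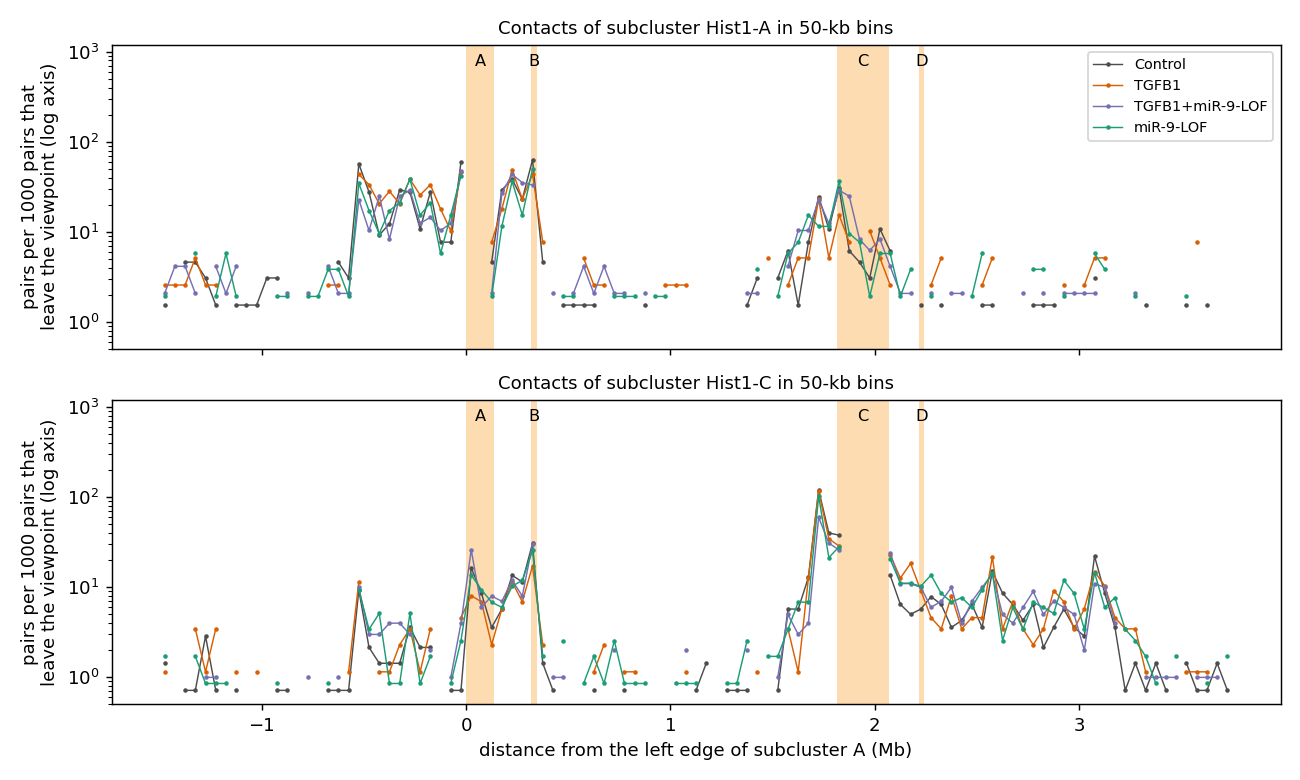
Pairs per 1000 pairs that leave subcluster A (top) or C (bottom) in 50-kb bins (vertical axis, logarithmic) against distance from the left edge of A in Mb (horizontal axis), with the subclusters shaded and 1 line per library. Contacts of A fall to the right of B and rise again at C and the 200 kb to its left, and contacts of C rise again at A, B and the sequence between them.

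The ends of these contacts were counted inside and outside the promoter windows. Of 118 pairs that join A and C by the positions of their ends, 7 had both ends within 1 kb of a member's start site, 38 had 1 end there and 73 had neither, and of 88 pairs that join B and C the counts were 12, 34 and 42. The median end was 2259 and 2276 bases from the nearest start site. The share of all ends of A, B and C that lay in these windows was not computed. These counts therefore do not show whether the contacts favour or avoid promoters. Of ends within 1 kb, Hist1h4h had the most with 19, then Hist1h2af with 14 and Hist1h2ah with 12. The mean levels of these genes were 3.81, 2.80 and 1.83 EPM, and Hist1h2be, with 3.09 EPM, had 1 such end. A read from a histone gene could be placed at a copy of it in another subcluster. When all pairs with an end within 1 kb of a member's start site were left out, the ratio was 6.94 between A and C and 5.49 between B and C.

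No contact changed past the threshold between libraries. Of 25 exact binomial tests over the subcluster pairs and the 3 contrasts, 0 were called and 1 had an unadjusted p under 0.05. This was A with C in TGFB1+miR-9-LOF over TGFB1, 39 and 15 pairs, with a log2 ratio of 1.2 (95% interval 0.30 to 2.16, exact p = 0.00590, adjusted p = 0.148). The interval of B with C in that contrast was -0.19 to 1.71 around 0.74. In TGFB1 over Control the ratios were -0.28 (-1.25 to 0.62) and -0.17 (-1.08 to 0.68), and in miR-9-LOF over Control 0.40 (-0.31 to 1.11) and 0.06 (-0.75 to 0.83). The ratio of marked bins at these distances also differed by library and was lowest in Control. The tests were not corrected for this.

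**Figure D5:**
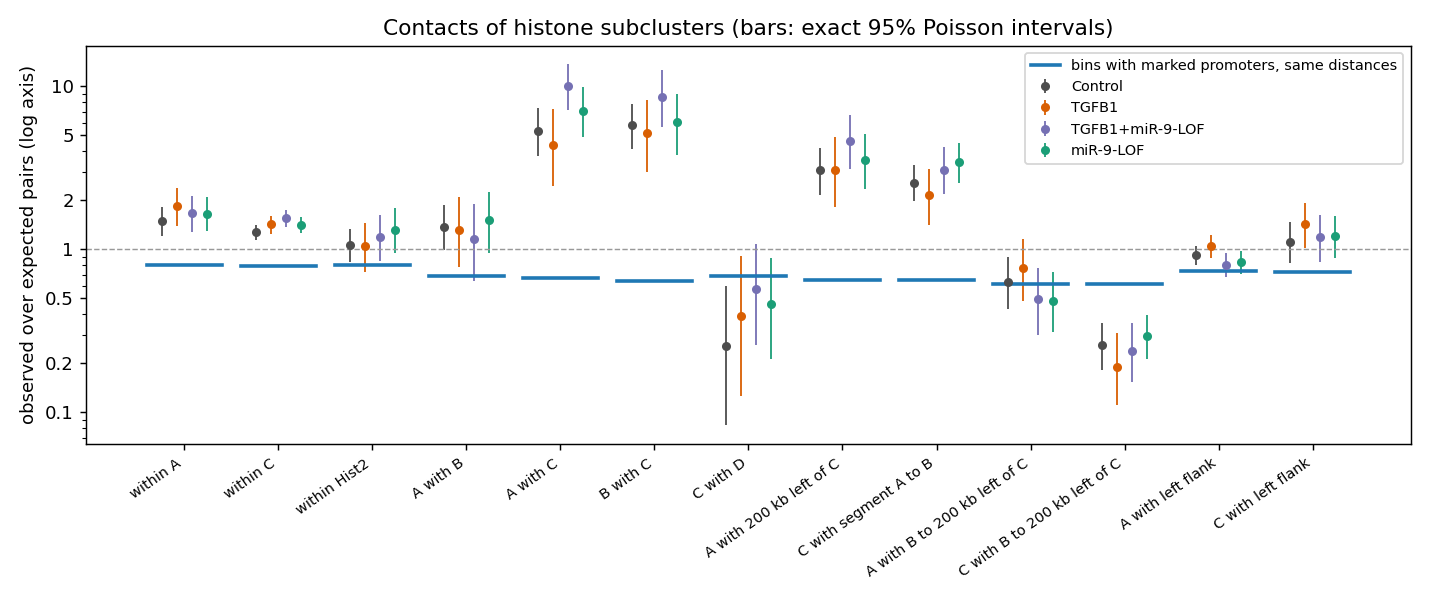
Observed over expected pairs (vertical axis, logarithmic) for pairs of histone subclusters and of subclusters with neighbouring segments, 1 point per library with exact 95% Poisson intervals, and blue lines for bins with marked promoters at the same distances. A with C (4.38 to 10.04) and B with C (5.15 to 8.61) lie above 1 in each library, C with D and the sequence from B to 200 kb left of C lie below 1.

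Between chromosomes, Hist1 and Hist2 were joined by 8 pairs, 2 in Control, 0 under TGFB1, 2 with TGFB1+miR-9-LOF and 4 with miR-9-LOF, where the interchromosomal coverage of both gave 0.246 expected. The ratio was 32.5 (exact 95% Poisson interval 14.0 to 64). Of these pairs 6 came from C and 2 from A. In Hist2, ends lay 44 and 101 bases from the start of Hist2h3b and 264 and 261 bases from that of Hist2h2bb, and a further end lay 945 bases from Hist2h3c2, while no Hist1 end lay within 1 kb of a start site (nearest 1093 bases, from Hist1h2bc). Hist1 had 0 pairs with Hist3 and 0 with Hist4, where 0.114 and 0.0574 were expected, so that absence there says little. Over all subcluster pairs on different chromosomes the ratio was 16.9 (7.31 to 33.4), and bins with marked promoters on different chromosomes had 1.06.

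The neighbourhood shared this link in part. Between the sequence 10 to 500 kb outside Hist1 and that outside Hist2 there were 43 pairs where 12.1 were expected, a ratio of 3.56 (2.58 to 4.79), and at 500 kb to 3 Mb the ratio was 1.30 (1.04 to 1.59). When pairs with an end within 1 kb of a member's start site were left out, 3 pairs between Hist1 and Hist2 remained where 0.139 were expected, a ratio of 21.6 (4.45 to 63.1). With 0 to 4 pairs per library no difference between conditions could be resolved. The share of all pairs of C that led to other chromosomes was 25.9%, 21.6%, 29.8% and 26.7% by library, below that of chromosome 13 in each (30.1%, 27.1%, 33.2% and 31.8%).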

How the data were processed

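MLg cells gave 4 H3K4me3 HiChIP-seq libraries (1 for each condition). The authors digested chromatin with MboI, aligned read pairs to mm10 with HiC-Pro at default settings, assigned ends to fragments and removed duplicates. HiC-Pro and mm10 are also named in the submitters' processing notes, and versions are not given in the sources used here. By default HiC-Pro drops reads that map equally well to several places, so that copied histone genes lose reads. The authors deposited the position, strand, fragment and mapping quality score of both ends of each valid pair, and lines were counted here. Pairs with a score of at least 30 at both ends were kept.

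Start sites came from GENCODE for GRCm38, and promoter sequences from RefSeq (GRCm38.p6). Python 3.11.15, numpy 2.4.6, scipy 1.17.1 and matplotlib 3.10.9 were used. Promoter ends of 2 libraries were compared by an exact binomial test with Benjamini-Hochberg adjustment over all marked promoters at a threshold of 0.05. Contacts were compared with the pairs expected from bin coverage and distance. The binomial test of promoters, the contact ratio within a chromosome and the search for unique words were tested on simulated data. Members and gene lists were chosen with earlier results of these data known. Named were the 2 members with the most and the 2 with the fewest ends per family, each member called, each unmarked member, and the list genes with the 3 largest and 3 smallest ratios in TGFB1 over Control; Npat, Slbp, E2f1 and Hinfp, the markers named and the neighbouring genes were added after their values were seen. The comparison of both effects of miR-9 loss, the windows of the same shape, the neighbouring segments and the removal of pairs near histone start sites were chosen after seeing the data.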

Additional observations from a re-analysis of the deposited data

How the results depend on the processing

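Alternatives were other windows, start sites, mapping quality, distances, totals, filters, bin sizes, distance factors and subcluster limits, and counting each pair of fragments once. No paired analysis was possible because each condition had 1 library. The number of marked members was 5 with windows of 2 kb (6676 of all coding promoters) and 5 with pairs at least 20 kb apart (7981), in place of 8 (8043).

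Totals of all pair ends shifted all promoter log2 ratios by -0.47 in TGFB1 over Control, -0.76 in TGFB1+miR-9-LOF over TGFB1 and -1.0 in miR-9-LOF over Control. The summed member ends then had log2 ratios of -0.48, -0.51 and -0.80, of which the last 2 reversed, and 5, 4 and 6 members were called lower, as were 21, 24 and 25 histone supply genes and 5, 7 and 7 replication-independent histone genes, beside 6538, 7225 and 7883 of the 8043 marked promoters. Of all calls 0.0611%, 0.0277% and 0.0380% were then higher, in place of 78.6%, 64.3% and 52.9%, so the direction of a promoter ratio holds only relative to the other marked promoters. In windows of 500 bp the summed ratio in TGFB1 over Control was -0.12, and with pairs at least 20 kb apart that of TGFB1+miR-9-LOF over TGFB1 was 0.41.

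In TGFB1 over Control 1 member was called higher with windows at the start of the coding sequence, 1 with all promoters of at least 20 ends and 1 with no filter, each time Hist1h3g. In TGFB1+miR-9-LOF over TGFB1, 1 of 41 members was called higher with at least 20 ends (1931 of all 18165 promoters tested). With no filter it was 1 of 67 (1808 of 21755), each time Hist1h2af. In miR-9-LOF over Control the number called higher was 0 with windows of 500 bp (312 of all 7972 promoters tested), 0 with 2 kb (480 of 6676), 0 with pairs at least 20 kb apart (189 of 7981) and 0 with totals of all ends (3 of 8043). It was 1 with the start of the coding sequence (384 of 6268) and 1 with each fragment pair counted once (274 of 8003). It was 6 of 46 with at least 20 ends (6026 of 18723) and 10 of 67 with no filter (6249 of 21755). Hist3h2a was called lower in each of the last 2 settings, beside 588 of 18723 and 566 of 21755 promoters. With no filter the median log2 ratio of all 21755 promoters was 0.16, 0.33 and 0.46 in the 3 contrasts, 93.9%, 95.3% and 91.7% of calls were higher, and 307, 1808 and 6249 promoters were called higher, so that unmarked promoters as a whole shift upward on this scale. This scale divides by marked-promoter ends, whose share of the library was 8.70% in Control, 6.26%, 3.71% and 4.35%. The median over all coding promoters was 1.84, 1.72, 1.56 and 1.56 EPM in the same order. Why the share of marked promoters differed was not tested.

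Within A the ratio of observed to expected pairs was 1.95 in bins of 5 kb, 1.86 in bins of 20 kb and 1.90 with the distance factor of all autosomes. Within C it was 1.73 in bins of 20 kb, 1.64 with all autosomes and 1.62 without pairs near a start site, and within Hist2 it was 1.77 in bins of 20 kb and 1.31 with all autosomes. With all autosomes it was 1.74 between A and B, 9.06 between A and C and 8.84 between B and C. With subclusters split at gaps over 500 kb, A and B together had 1.04, C and D together 1.02, and the link between them 2.89. Contacts called between libraries were 0 in all alternatives run. The other 127 recomputed values stayed within the error or on the same side of the threshold.

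With 1 library per condition no value here separates a condition from a library. The 15 to 41 pairs per library between A or B and C limit the precision of these ratios, and promoters with few unique words or few MboI sites had fewer ends, so a low level there says little of the mark.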
